A study of Mus musculus with 15 samples.

Results

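Fatty acid oxidation and ketone body formation were followed in mouse liver through 39 genes: 19 of the mitochondrial pathway, 11 of the peroxisomal pathway, 5 whose proteins work in several compartments, in the cytosol or at a debated place, and 4 regulators or targets of PPAR alpha. The genes were chosen by symbol, with earlier results of these data known, and all 39 were found among the 23420 gene symbols of the count files. The study sequenced polyA RNA of the left lobe of the liver, pulverized, from males of the inbred mouse strain C57Bl/6J, in work on how fatty liver disease alters the handling of tetrachloroethylene. The MCD group ate 31% fat without methionine, choline or folate, the HFD group ate a high-fat diet with 31% fat, and the BD group ate a base diet with 4% fat. Each diet had 5 libraries. All 15 libraries carry the label of the vehicle, 5% Alkmauls El-620 in saline, and of 24 h after it, so none is from a mouse given tetrachloroethylene. Whether each library is a separate animal is not labelled. The p-values therefore weigh diet differences only against the spread between these libraries, which may in part be technical.

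Fatty acids are activated to acyl-CoA, pass into mitochondria bound to carnitine, and are shortened step by step to acetyl-CoA. Liver turns much of that acetyl-CoA into ketone bodies, which other organs burn. Peroxisomes run a parallel pathway for very long and branched chains, and its shortened products move on to mitochondria. PPAR alpha, a nuclear receptor that fatty acids activate, raises transcription of many genes of both pathways in liver.

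On MCD 13 of the 37 members that could be tested were higher than on BD and 2 were lower, and on HFD 8 were higher than on BD and 0 lower. On HFD these were the entry gate Cpt1a, the ketone body enzyme gene Bdh1, the trifunctional protein genes Hadha and Hadhb, the dienoyl-CoA reductase genes Decr1 and Decr2, the peroxisome gene Pex11a and the PPAR alpha target Vnn1. On MCD the higher members were those named and Acadl, Acadm, Acat1, Acot2 and Ech1, and the lower ones were Etfb and Acsl1. With the share of non-unique alignments in the fit, 8 members were higher on MCD and 11 on HFD. Between MCD and HFD only Acsl1, which activates long-chain fatty acids, passed the test, and it was lower on MCD. Among all 12193 genes tested, 12.8% were called higher and 8.64% lower on MCD against BD, 3.65% higher and 3.27% lower on HFD against BD, and 2.22% higher and 0.927% lower on MCD against HFD. Because the members were chosen with earlier results known, setting their counts beside these shares is a description and not a test. The split depends on the scaling: without scaling factors 2308 genes were higher and 512 lower on MCD against BD, in place of 1557 and 1053, 589 and 297 on HFD against BD, in place of 445 and 399, and 411 and 67 on MCD against HFD, in place of 271 and 113. Calls are at adjusted p below 0.05 in edgeR's quasi-likelihood F test on counts, with Benjamini-Hochberg adjustment over those genes. Levels are CPM, counts scaled to a common library size, fold changes are on the log2 scale, and their errors are standard errors.

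The libraries held 3704642 to 23131089 gene counts, with a median of 10312311, and the lowest value of a tested member in any library was 0.917 CPM. HFD replicate 2 stood apart. It was the highest HFD library for 25 of the 37 tested members, or 67.6%, against 24.8% of all genes tested. Its summed adipocyte markers came to 206.6 CPM, against 34.9 to 60.4 CPM in the other HFD libraries, its cholangiocyte markers to 193 CPM, against 59.2 to 85.8 CPM, and its stellate cell markers to 325 CPM, against 196 to 238 CPM. Values without it are given beside several of the members it moved, though not beside all of them. In the submitters' numbering each diet forms its own run, with BD last and apart from the other diets. A batch that follows the numbers therefore cannot be told apart from diet, MCD against HFD included.

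Compared per kilobase of exon, the members spanned a wide range in every diet. Acaa2, a thiolase gene of the last step of each mitochondrial round, was the most abundant, at 561 CPM per kilobase in MCD livers, 575 in HFD livers and 569.5 in BD livers. The peroxisomal thiolase gene Acaa1b came next in each diet, at 481, 431 and 333 CPM per kilobase in MCD, HFD and BD livers. Hadhb, at 5.72, 6.20 and 4.53 CPM per kilobase in MCD, HFD and BD livers, lay far below its partner Hadha, at 63.6, 64.2 and 51.001. Both encode subunits of one protein complex. Of the 50-base words of Hadhb transcripts, 19.7% also occur in other genes, and 18.1% in Gm13910, and reads that fit several places were left out of the counts. Exon lengths came from a gene annotation that is not known to be the submitters' own, so these ratios are approximate.

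Cpt1a, the rate-limiting gate through which long-chain fatty acids enter mitochondria, had the largest fold change of the mitochondrial members called on HFD. Cpt1a had 570.3, 491, 642, 768 and 833 CPM in MCD livers, 764, 855, 762, 749 and 739.8 in HFD livers, and 385, 398, 389.9, 296 and 416 in BD livers. Every MCD and every HFD library lay above every BD library. Within MCD the values spread widely, with replicates 1 and 2 low and replicates 4 and 5 high. The log2 fold change was 0.81 ± 0.13 on MCD against BD (1.75-fold, adjusted p = 0.000232) and 1.04 ± 0.13 on HFD against BD (2.05-fold, adjusted p = 4.25e-05). The difference between MCD and HFD was -0.23 ± 0.13, with a 95% interval of -0.49 to 0.04 and adjusted p = 0.326. The rest of the carnitine shuttle did not pass the test in any pair: Cpt2, which releases the fatty acid inside, stood at 192 ± 10.1 CPM in MCD livers, 212 ± 13.03 in HFD livers and 199 ± 22.7 in BD livers (SD, n = 5), and the carrier gene Slc25a20 at 148 ± 10.6, 150.4 ± 18.9 and 131 ± 17.4 CPM. Cpt1b, the muscle form of the gate, had 5, 4, 6, 10 and 4 counts in the MCD libraries, 3, 6, 1, 14 and 1 in the HFD libraries and 2, 5, 8, 3 and 7 in the BD libraries, and it was too low to test. Striated muscle markers were near absent as well, with a summed level of 4.67 to 7.82 CPM in MCD livers, 3.78 to 5.76 in HFD livers and 3.98 to 6.54 in BD livers, and with Ckm at 0 in all libraries.

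The starts of 3 genes are shown because they carry the contrasts described here: Cpt1a, which was higher on both high-fat diets, Hadhb, which shares its start region with Hadha, and Acsl1, the member that was lower on MCD than on either other diet. Each is the 250 bases before a RefSeq start on build GRCm38.p6, for Acsl1 the upstream one of 2 starts, read 5′ to 3′ on the strand of the gene, here the plus strand in all 3, at chr19:3323051-3323300, chr5:30155003-30155252 and chr8:46470787-46471036. Capitals mark the nuclear receptor core motif AGGTCA and the GC-box GGGCGG, on either strand.
Cpt1a: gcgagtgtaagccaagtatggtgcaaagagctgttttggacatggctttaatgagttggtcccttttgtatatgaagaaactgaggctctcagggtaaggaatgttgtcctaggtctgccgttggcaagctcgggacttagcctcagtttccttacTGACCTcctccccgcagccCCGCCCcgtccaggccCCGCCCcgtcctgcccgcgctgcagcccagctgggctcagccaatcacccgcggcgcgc
Hadhb: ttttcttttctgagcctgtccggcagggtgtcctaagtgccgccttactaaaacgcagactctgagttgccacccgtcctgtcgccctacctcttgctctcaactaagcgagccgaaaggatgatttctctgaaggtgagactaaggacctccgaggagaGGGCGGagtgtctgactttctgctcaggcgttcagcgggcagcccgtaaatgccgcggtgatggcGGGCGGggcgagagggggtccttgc
Acsl1: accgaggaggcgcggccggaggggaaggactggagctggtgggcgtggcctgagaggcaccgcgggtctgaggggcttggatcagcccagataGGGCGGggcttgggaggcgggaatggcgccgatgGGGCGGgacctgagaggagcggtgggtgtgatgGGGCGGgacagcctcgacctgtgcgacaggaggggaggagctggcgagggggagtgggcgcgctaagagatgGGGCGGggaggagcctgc
The Cpt1a stretch holds 1 core motif and 2 GC-boxes, the Hadhb stretch 2 GC-boxes, and the Acsl1 stretch 4 GC-boxes.

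RefSeq start regions were at hand for 32 of the 39 members, in 38 windows that run from 250 bases before to 50 after the start. The full PPAR element, AGGTCANAGGTCA, was in 0 of the 38 windows and in 0.0396% of the 32851 windows of all genes. With 1 open base inside each AGGTCA, as AGGNCANAGGNCA, it was in 0 of 38 against 0.381%. The core motif AGGTCA, which the full element holds at both ends, was in 9 of 38 windows, or 23.7%, against 16.3% of all windows, and the windows belonged to Acadm, Acadvl, Acot3, Acot4, Aqp7, Cpt1a and Creb3l3. GGGCGG was in 21 windows, or 55.3%, against 35.7%, and CCAAT in 19 of the 38, against 37.4% of all windows. Of the clock motifs, the E-box CACGTG was in 1 window, that of Acot4, against 7.15% of all windows, and the D-box TTATGTAA in 0, against 0.938%. Each motif was searched on both strands. A match is a description of the letters and not a bound site.

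**Figure D1:**
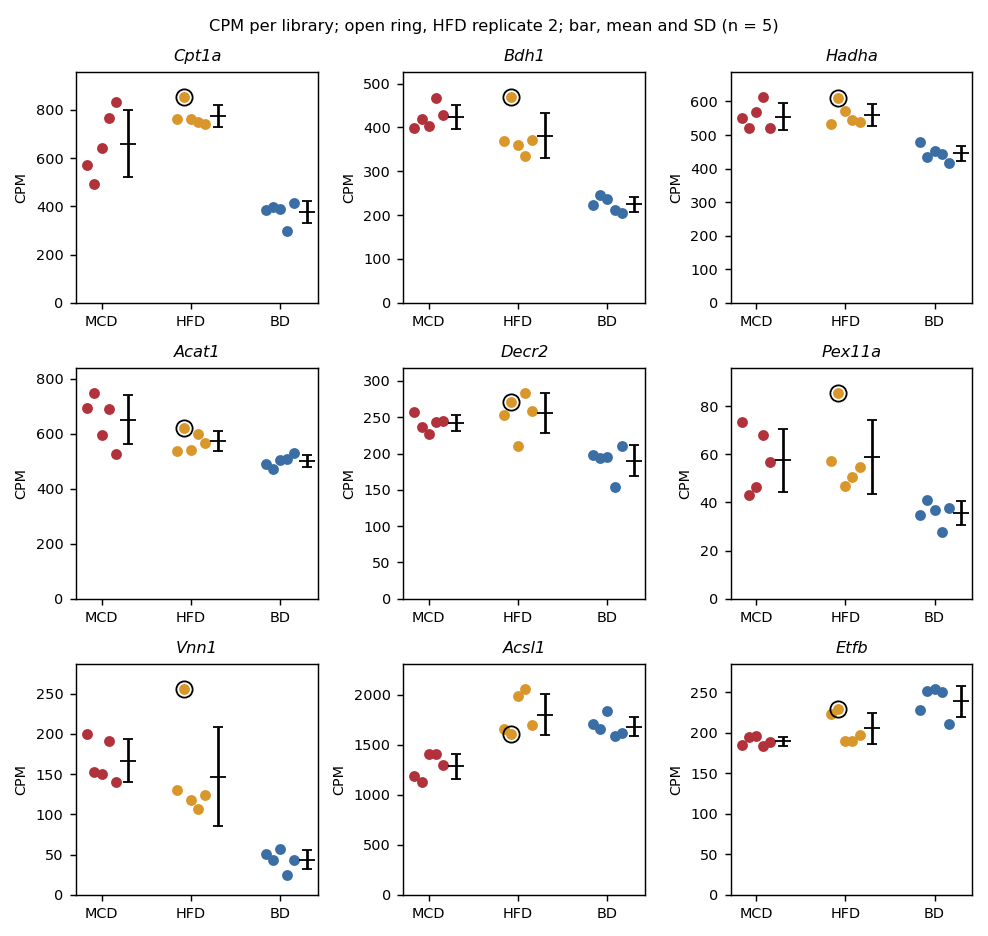
CPM of 9 members in each of the 15 libraries, by diet, on linear axes that start at 0, with the mean and SD of 5 libraries as a bar and HFD replicate 2 ringed. Cpt1a, Bdh1, Hadha, Pex11a and Vnn1 show all MCD and all HFD libraries above all BD libraries, while Acsl1 is low on MCD only.

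The acyl-CoA dehydrogenases take the first step of each round, and each prefers a chain length. On MCD the long-chain and medium-chain genes were higher than on BD, while the very-long-chain and short-chain genes did not pass the test. Acadl had 322, 373, 282, 331 and 283 CPM in MCD livers, 255, 328, 261, 271 and 279 in HFD livers, and 246, 209, 229, 245 and 222 in BD livers. All MCD libraries lay above all BD libraries, and so did all HFD libraries, although the lowest HFD value was close to the highest BD value. Acadl differed by 0.47 ± 0.10 on the log2 scale on MCD against BD (adjusted p = 0.00195) and 0.28 ± 0.10 on HFD against BD (adjusted p = 0.0998). Acadm had 426, 414, 414, 486 and 406 CPM in MCD livers, 358, 499, 344, 364 and 372 in HFD livers, and 362, 326, 380.4, 353 and 315 in BD livers. MCD and BD did not overlap, and HFD overlapped BD apart from its replicate 2, the highest value of all 15 libraries. Acadm had log2 fold changes of 0.30 ± 0.10 on MCD against BD (adjusted p = 0.041) and 0.16 ± 0.10 on HFD against BD (adjusted p = 0.441). The MCD call of Acadm was lost without any of several single libraries, with the highest adjusted p at 0.108 without MCD replicate 4, and with the share of non-unique alignments in the fit, at 0.16 with adjusted p = 0.26. Without HFD replicate 2 the HFD value of Acadm was 0.056 with adjusted p = 0.813. Acadvl averaged 468 ± 44.5 CPM in MCD livers, 475 ± 21.7 in HFD livers and 464 ± 22.6 in BD livers, with log2 fold changes of 0.01 ± 0.08 and 0.03 ± 0.08 for MCD and HFD against BD. Acads averaged 174 ± 24.5, 168 ± 34.7 and 167 ± 35.2 CPM in MCD, HFD and BD livers, and its 95% interval on MCD against BD ran from -0.27 to 0.40.

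The later steps for long chains sit in the trifunctional protein, whose alpha and beta subunits are encoded by Hadha and Hadhb. These genes lie head to head on chromosome 5, with RefSeq starts at 30154980 on the minus strand and 30155253 on the plus strand of GRCm38.p6 and 272 bases between them, so the Hadhb stretch printed above is also the region before Hadha. Hadha had 551, 519.8, 569, 614 and 522 CPM in MCD livers, 534, 611, 572, 546 and 539 in HFD livers, and 479, 434, 454, 443 and 416 in BD livers. Both high-fat diets lay above BD without overlap. Hadhb had 31.3, 37.4, 44.3, 41.9 and 33.7 CPM in MCD livers, 38.8, 40.97, 39.6, 44.9 and 40.2 in HFD livers, and 25.3, 31.9, 34.5, 32.8 and 24.96 in BD livers. All HFD libraries lay above all BD libraries, whereas MCD replicates 1 and 5 fell inside the BD range. Hadha had log2 fold changes of 0.32 ± 0.08 on MCD (adjusted p = 0.00715) and 0.33 ± 0.08 on HFD (adjusted p = 0.0144) against BD. Those of Hadhb were 0.33 ± 0.11 on MCD (adjusted p = 0.0452) and 0.45 ± 0.12 on HFD (adjusted p = 0.0224) against BD. The Hadhb call on MCD was lost under 11 of 24 alternatives, with adjusted p up to 0.125, and that on HFD under 3, without HFD replicate 4, BD replicate 1 or BD replicate 5, with adjusted p up to 0.0578. Hadh, the dehydrogenase for shorter chains, averaged 441 ± 31.5 CPM in MCD livers, 419 ± 78.02 in HFD livers and 356 ± 34.9 in BD livers. Its log2 fold change on MCD against BD was 0.31 ± 0.11 with adjusted p = 0.0581, and all MCD libraries lay above all BD libraries. The thiolase gene Acaa2 stood at 851 ± 98.2, 872 ± 16.9 and 863 ± 34.5 CPM in MCD, HFD and BD livers, with 95% intervals of -0.20 to 0.16 on MCD and -0.16 to 0.19 on HFD against BD.

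Decr1, the mitochondrial dienoyl-CoA reductase needed for polyunsaturated fatty acids, had 335, 369, 239, 277 and 228 CPM in MCD livers, 242, 311, 243, 286 and 287 in HFD livers, and 209, 177, 182, 197 and 230.1 in BD livers. The HFD libraries all lay above the BD libraries, and MCD replicate 5 fell just inside the BD range. Decr1 had a log2 fold change of 0.54 ± 0.13 on MCD against BD (adjusted p = 0.00503) and 0.46 ± 0.13 on HFD against BD (adjusted p = 0.0343). The HFD call was lost without HFD replicate 2, 4 or 5 or BD replicate 2, 3 or 4, at adjusted p of 0.0624 to 0.0924. Within MCD, Decr1 was highest in replicates 1 and 2, where Cpt1a was lowest.

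Of the electron transfer genes, which pass electrons from the dehydrogenases to the respiratory chain, Etfb was lower on MCD than on BD. It had 184, 195, 195, 184 and 189 CPM in MCD livers, 223, 229, 189.8, 189 and 197 in HFD livers, and 229, 251, 254, 250.05 and 210.1 in BD livers. All MCD libraries lay below all BD libraries, with a narrow MCD range. On the log2 scale Etfb differed by -0.33 ± 0.08 on MCD against BD (adjusted p = 0.00727), and without scaling factors it was -0.20 with adjusted p = 0.124. Of the 50-base words of Etfb, 44.8% also occur in other genes, and 43.8% in Gm45233, so its level is uncertain. On HFD against BD Etfb stood at -0.22 ± 0.08 with adjusted p = 0.144. Its partner Etfa averaged 214 ± 61.2 CPM in MCD livers, 177 ± 8.81 in HFD livers and 191 ± 29.5 in BD livers, and Etfdh, the acceptor of their electrons, 403 ± 40.9, 418 ± 27.3 and 362 ± 25.2 CPM. Neither passed the test in any pair.

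Of the ketone body members, Bdh1, which reduces acetoacetate to beta-hydroxybutyrate, had the smallest adjusted p of all members on MCD against BD. Bdh1 had 399, 419.7, 403, 466 and 429 CPM in MCD livers, 370.1, 470.1, 361, 336 and 370.3 in HFD livers, and 224, 246, 237, 213 and 205 in BD livers. Every library of both high-fat diets lay above every BD library, and the lowest high-fat value was well clear of the highest BD value. On the log2 scale this was 0.91 ± 0.10 on MCD against BD (1.88-fold, adjusted p = 6.06e-06) and 0.76 ± 0.10 on HFD against BD (1.70-fold, adjusted p = 4.7e-05). Without HFD replicate 2 the HFD value was 0.68. Acat1, whose enzyme joins acetyl-CoA units at the start of ketone body formation, had 694, 749.98, 595, 689.7 and 528 CPM in MCD livers, 538, 623, 541, 598 and 566 in HFD livers, and 492, 472, 507, 507 and 529.7 in BD livers. MCD replicate 5 lay inside the BD range, and the other MCD libraries lay above it. All HFD libraries lay above all BD libraries by a small margin. Acat1 had log2 fold changes of 0.38 ± 0.09 on MCD against BD (adjusted p = 0.00753) and 0.19 ± 0.09 on HFD against BD (adjusted p = 0.267).

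**Figure D2:**
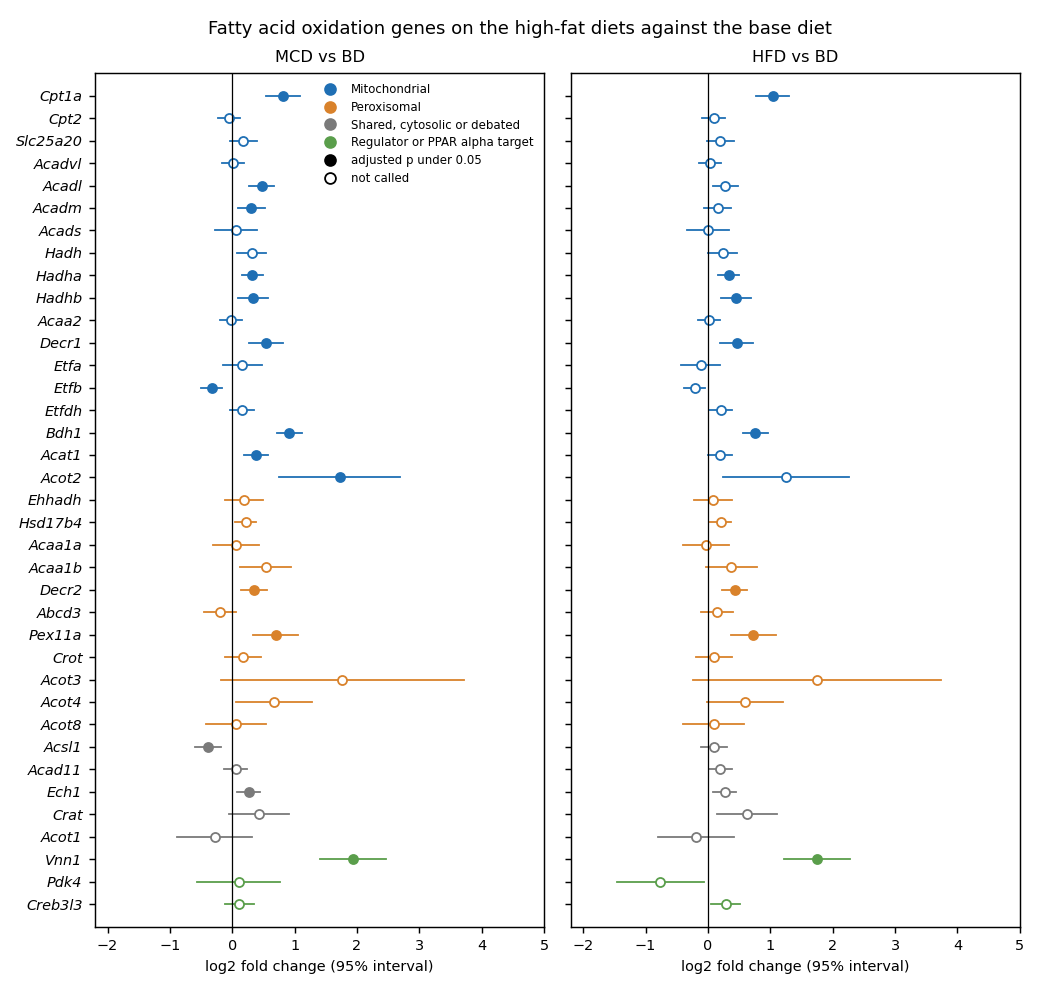
Log2 fold changes with 95% intervals of the 37 tested members, MCD against BD at the left and HFD against BD at the right, coloured by role, with filled points for adjusted p under 0.05. On MCD 13 members are higher and 2 lower (Etfb and Acsl1), and on HFD 8 are higher; both panels use the same 5 BD libraries.

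Of the 11 peroxisomal members, Decr2 and Pex11a passed the test, and both were higher on each high-fat diet than on BD. Decr2, the peroxisomal dienoyl-CoA reductase, had 257, 237, 227, 243 and 244 CPM in MCD livers, 253, 272, 211, 284 and 259 in HFD livers, and 198, 194, 195, 153 and 211 in BD livers. All MCD libraries lay above all BD libraries, and HFD overlapped BD only through its replicate 3. Decr2 had log2 fold changes of 0.35 ± 0.10 on MCD (adjusted p = 0.0147) and 0.43 ± 0.10 on HFD (adjusted p = 0.00985) against BD. Pex11a, which drives the division of peroxisomes and is a PPAR alpha target, had 73.3, 43.1, 46.6, 68.2 and 56.8 CPM in MCD livers, 57.2, 85.6, 46.9, 50.5 and 54.9 in HFD livers, and 34.6, 40.97, 37.1, 27.6 and 37.7 in BD livers. Both high-fat diets lay above BD without overlap, with HFD replicate 2 the highest library. Pex11a had log2 fold changes of 0.69 ± 0.17 on MCD (1.62-fold, adjusted p = 0.00777) and 0.73 ± 0.17 on HFD (1.66-fold, adjusted p = 0.0153) against BD, and on HFD it was 0.56 with adjusted p = 0.0318 without HFD replicate 2. With the share of non-unique alignments in the fit, the MCD value of Pex11a was 0.49 with adjusted p = 0.0828.

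The enzymes of the peroxisomal spiral itself did not pass the test. Ehhadh, the bifunctional enzyme gene that PPAR alpha agonists raise strongly in rodents, had 726, 431, 508, 493 and 354 CPM in MCD livers, 414, 449, 409, 543 and 526 in HFD livers, and 438, 410.4, 487, 428 and 443 in BD livers. The 3 diets overlapped, with MCD holding both the highest and the lowest library. Its log2 fold change was 0.19 ± 0.14 on MCD and 0.09 ± 0.15 on HFD against BD, with 95% intervals of -0.12 to 0.49 and -0.22 to 0.39. Acaa1b, a thiolase gene, had 1283, 969, 856, 906 and 708 CPM in MCD livers, 936, 1098, 614, 667 and 915 in HFD livers, and 682, 702, 887, 524 and 469 in BD livers. Its log2 fold change on MCD against BD was 0.53 ± 0.19 with adjusted p = 0.0601, and MCD and BD overlapped. It passed under 7 alternatives, among them DESeq2 with adjusted p = 0.0329. Of the 50-base words of Acaa1b, 39.6% also occur in other genes, and 30.5% in Acaa1a on chromosome 9, so the split between them is uncertain. Acaa1a averaged 89.1 ± 7.07 CPM in MCD livers, 83.8 ± 21.4 in HFD livers and 86.3 ± 22.5 in BD livers.

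Hsd17b4, the second bifunctional enzyme gene, averaged 701 ± 38.7 CPM in MCD livers, 699 ± 45.9 in HFD livers and 605 ± 38.4 in BD livers. Its log2 fold change was 0.21 ± 0.08 on MCD (adjusted p = 0.0685) and 0.21 ± 0.08 on HFD (adjusted p = 0.143) against BD, and with DESeq2 both passed, at adjusted p = 0.016 and 0.0388. Crot, which ties shortened chains to carnitine for export, averaged 1121 ± 113 CPM in MCD livers, 1063 ± 157 in HFD livers and 995 ± 209.7 in BD livers. Abcd3, an importer in the peroxisomal membrane, averaged 813 ± 124 CPM in MCD livers, 1033 ± 139.99 in HFD livers and 933 ± 101 in BD livers, and it was called in neither pair against BD. Acot8, a peroxisomal thioesterase gene, averaged 10.7 ± 2.24, 10.9 ± 3.27 and 10.3 ± 3.54 CPM in MCD, HFD and BD livers.

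The acyl-CoA thioesterases, which cut acyl-CoA back to free fatty acid, are encoded in part by a group of related genes on chromosome 12. Of the 50-base words of Acot1, Acot2, Acot3 and Acot4, 13.4% to 27.7% also occur in other genes, and their values are uncertain because reads that fit several places were left out. Acot2, the mitochondrial form, was higher on MCD than on BD. It had 10.1, 3.53, 5.09, 9.55 and 7.41 CPM in MCD livers, 4.47, 12.9, 2.61, 2.32 and 3.37 in HFD livers, and 1.70, 2.79, 2.41, 2.56 and 1.56 in BD livers. All MCD libraries lay above all BD libraries, while HFD overlapped BD and its replicate 2 was the highest of all. Against BD, the log2 fold change of Acot2 was 1.72 ± 0.46 on MCD (3.29-fold, adjusted p = 0.0135), and it was 0.77 with adjusted p = 0.076 when the share of non-unique alignments entered the fit. On HFD against BD it was 1.25 ± 0.47 with adjusted p = 0.143, and 0.55 with adjusted p = 0.432 without HFD replicate 2. The HFD difference passed with DESeq2, at 1.24 with adjusted p = 0.04, and with the share of non-unique alignments in the fit, at 0.87 with adjusted p = 0.0454. Acot3, a peroxisomal form, had 16.4, 6.02, 9.12, 27.1 and 5.59 CPM in MCD livers, 7.85, 42.9, 2.13, 0.917 and 9.84 in HFD livers, and 3.69, 4.33, 5.69, 5.26 and 1.09 in BD livers. A single HFD library held 42.9 CPM while the others held at most 9.84, and no comparison passed. The log2 fold change of Acot3 on HFD against BD was 1.75 ± 0.92, and 0.41 without HFD replicate 2. Acot4, which acts on short dicarboxylic acyl-CoA in peroxisomes, averaged 30.4 ± 8.87 CPM in MCD livers, 28.99 ± 13.3 in HFD livers and 19.3 ± 2.94 in BD livers, with no call. On HFD against BD Acot4 stood at 0.59, and at 0.32 without HFD replicate 2. Acot1, the cytosolic form, had 14.6, 12.9, 12.9, 12.9 and 5.48 CPM in MCD livers, 14.3, 20.01, 9.005, 7.63 and 12.002 in HFD livers, and 14.2, 8.88, 19.9, 16.8 and 12.8 in BD livers. The diets overlapped, with log2 fold changes of -0.29 ± 0.28 on MCD and -0.19 ± 0.29 on HFD against BD, and -0.42 on HFD without HFD replicate 2.

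Set side by side, 9 of the 18 tested mitochondrial members were called higher and 1 lower on MCD against BD, and 2 of 11 peroxisomal members were called higher and 0 lower. On HFD against BD 5 of 18 mitochondrial members and 2 of 11 peroxisomal members were called higher and 0 of either lower. Among all genes tested, 12.8% were called higher and 8.64% lower on MCD against BD, and 3.65% and 3.27% on HFD against BD. The peroxisomal members called higher were 18.2% in each pair, so on MCD their share was not far from that of all genes. Whether it exceeded that share was not tested. At an unadjusted p under 0.05 in edgeR, 1 mitochondrial and 0 peroxisomal members were lower on HFD, and DESeq2 and limma-voom called 0 of either lower. The median log2 fold change was 0.31 for mitochondrial and 0.21 for peroxisomal members on MCD, 0.20 and 0.21 on HFD, against -0.03 and -0.01 for all genes tested on MCD and HFD. The difference between the pathways was not tested. The count of peroxisomal members called on MCD depended on the fit, with 4 by DESeq2, 5 when only MCD and BD entered the fit, and 4 without HFD replicate 2 or without MCD replicate 5. Both comparisons use the same BD libraries.

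Summed over the members, mitochondrial transcripts reached 6453 ± 319 CPM in MCD livers, 6372 ± 428 in HFD livers and 5331 ± 140.3 in BD livers (SD, n = 5). Peroxisomal transcripts reached 4524 ± 578, 4561 ± 277 and 3973 ± 352 CPM in MCD, HFD and BD livers. The mitochondrial sum of every high-fat library, 6083 CPM or more on MCD and 6079.5 or more on HFD, lay above the highest BD sum of 5545 CPM. The peroxisomal sums of MCD, 3697 to 5308 CPM, overlapped those of BD, 3498 to 4300.4 CPM. Those of HFD, 4288 to 4992 CPM, overlapped BD only through HFD replicate 3, by a small margin. As a percentage of the mitochondrial sum, the peroxisomal sum was 70.0 ± 7.53 in MCD livers, 71.6 ± 1.91 in HFD livers and 74.5 ± 5.82 in BD livers, and these ranges overlapped.

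**Figure D3:**
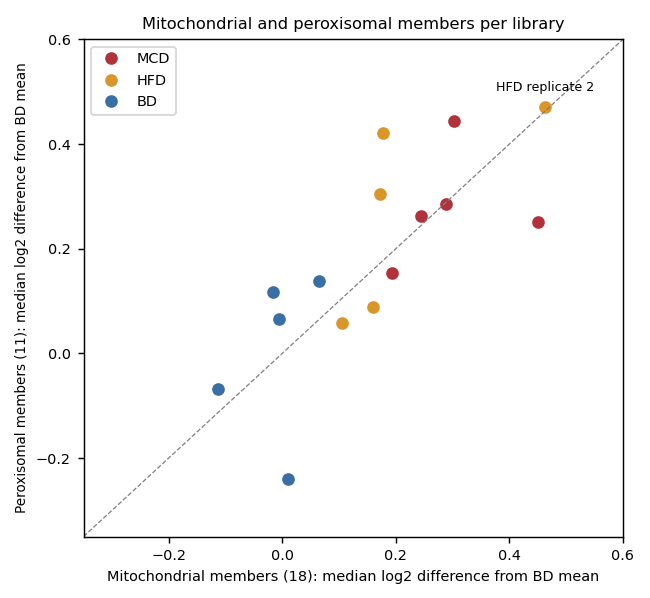
Each point is 1 library: the median log2 difference from the BD mean over 18 mitochondrial members (x axis) and over 11 peroxisomal members (y axis), with the dashed line marking equality. All MCD and HFD libraries lie at 0.105 or more on the mitochondrial axis and BD libraries at 0.065 or less, while on the peroxisomal axis HFD reaches down to 0.059 and BD up to 0.139; HFD replicate 2 is the point at the upper right.

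Acsl1 was, beside Etfb, the other member that was lower on MCD than on BD. Its product activates long-chain fatty acids at the mitochondrial outer membrane and the endoplasmic reticulum. Acsl1 had 1187, 1127, 1409, 1404 and 1299 CPM in MCD livers, 1657, 1609, 1983, 2062 and 1698 in HFD livers, and 1712, 1660.2, 1837, 1587 and 1616 in BD livers. All MCD libraries lay below all libraries of both other diets, and HFD overlapped BD. The log2 fold change was -0.39 ± 0.10 on MCD against BD (0.76-fold, adjusted p = 0.00714), 0.10 ± 0.10 on HFD against BD (adjusted p = 0.638), and -0.49 ± 0.10 on MCD against HFD (0.71-fold, adjusted p = 0.0135). The MCD against BD call was lost without scaling factors, at -0.25 with adjusted p = 0.0687, and the MCD against HFD call without HFD replicate 4, at -0.43 with adjusted p = 0.054, or with the share of non-unique alignments in the fit, at -0.44 with adjusted p = 0.0682.

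Of the other members with more than 1 compartment, Ech1 passed the test, on MCD. Ech1, a dienoyl-CoA isomerase of mitochondria and peroxisomes, had 368, 346, 358, 366 and 323 CPM in MCD livers, 349, 414, 318, 334 and 350.2 in HFD livers, and 309, 282, 316, 301 and 260.2 in BD livers. Both high-fat diets lay above BD without overlap, by a small margin on HFD. Its log2 fold change was 0.26 ± 0.09 on MCD (adjusted p = 0.0379) and 0.27 ± 0.09 on HFD (adjusted p = 0.0766) against BD, and the MCD call was lost under 8 of 24 alternatives, 7 of them without a single library. The HFD difference of Ech1 passed under 3 alternatives: with DESeq2, without scaling factors and with the share of non-unique alignments in the fit, at adjusted p of 0.0234 to 0.0365. Acad11, an acyl-CoA dehydrogenase of debated place, averaged 503 ± 45.5 CPM in MCD livers, 555 ± 37.1 in HFD livers and 484 ± 37.9 in BD livers. Crat, the carnitine acetyltransferase gene, averaged 89.8 ± 23.8 CPM in MCD livers, 103 ± 33.9 in HFD livers and 67.3 ± 15.4 in BD livers, with no call. The log2 fold change of Crat on HFD against BD was 0.63 ± 0.23 with adjusted p = 0.128, and 0.43 with adjusted p = 0.305 without HFD replicate 2. It passed with the share of non-unique alignments in the fit, at 0.58 with adjusted p = 0.0129.

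Vnn1, which encodes the pantetheinase vanin and is a known PPAR alpha target in mouse liver, had the largest fold change of the called members in both pairs against BD. It had 200.3, 152, 151, 191 and 140.05 CPM in MCD livers, 130.3, 256, 118, 107 and 124 in HFD livers, and 50.5, 43.7, 56.3, 24.6 and 43.3 in BD livers. Every library of both high-fat diets lay far above every BD library. The log2 fold change was 1.93 ± 0.25 on MCD (3.82-fold, adjusted p = 9.94e-05) and 1.75 ± 0.25 on HFD (3.37-fold, adjusted p = 0.000418) against BD, and 1.46 on HFD without HFD replicate 2. Pdk4, which restrains the use of glucose by blocking pyruvate dehydrogenase and is a PPAR alpha target too, had 41.8, 23.8, 19.6, 28.2 and 24.3 CPM in MCD livers, 24.8, 20.1, 15.9, 9.27 and 5.93 in HFD livers, and 35.8, 23.2, 29.2, 24.7 and 18.5 in BD livers. The diets overlapped, and the 3 lowest values were HFD libraries. The log2 fold change of Pdk4 was 0.10 ± 0.31 on MCD against BD, -0.76 ± 0.33 on HFD against BD (adjusted p = 0.2) and 0.86 ± 0.32 on MCD against HFD (adjusted p = 0.148). Creb3l3, a liver transcription factor of fasting, had 254, 277, 325, 318 and 385 CPM in MCD livers, 369, 361, 321, 361 and 348 in HFD livers, and 273, 336, 325, 259.7 and 249.6 in BD livers. The diets overlapped, with log2 fold changes of 0.11 ± 0.11 on MCD and 0.29 ± 0.11 on HFD against BD. Aqp7, a glycerol channel of adipocytes, was below the filter on low counts, with 31, 1, 3, 17 and 8 counts in the MCD libraries, 0, 8, 0, 2 and 1 in the HFD libraries and 0, 1, 1, 0 and 0 in the BD libraries. Without the filter it passed on MCD against BD, at a log2 fold change of 3.89 with adjusted p = 0.0105, and had adjusted p = 0.449 on HFD against BD and 0.23 on MCD against HFD. The higher counts came from MCD replicates 1, 4 and 5.

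**Figure D4:**
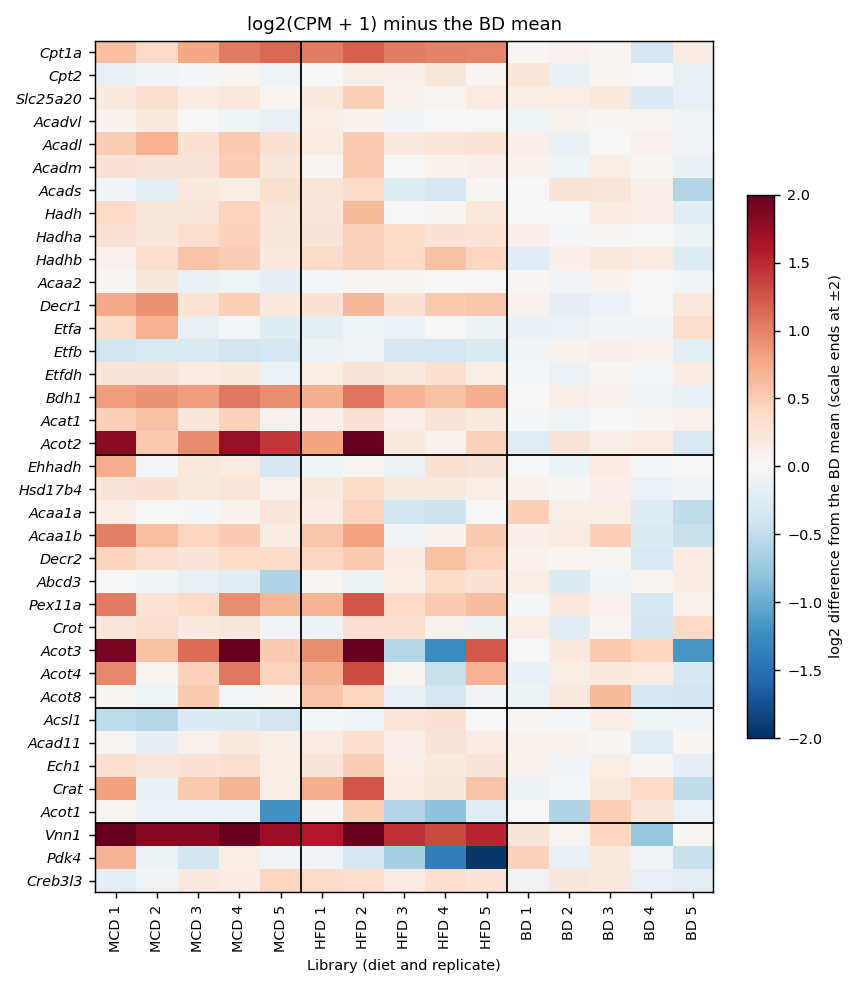
Log2(CPM + 1) of the 37 tested members in each library minus the BD mean of that member, with libraries ordered by diet and members grouped as mitochondrial, peroxisomal, shared or cytosolic, and regulators or targets; colours end at 2 in either direction. Cpt1a, Bdh1 and Vnn1 are red in every high-fat library, Acsl1 is blue in the MCD libraries only, and HFD replicate 2 is the reddest HFD column.

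MCD and HFD carry the same labelled fat content and differ in methionine, choline and folate. Between them edgeR called 0 of 37 members higher and 1, Acsl1, lower on MCD. Among all genes tested only 2.22% were called higher and 0.927% lower in this pair, so few calls among 37 members say little about them. At an unadjusted p under 0.05 edgeR gave 1 higher and 2 lower, and DESeq2 and limma-voom each called 0 higher and 1 lower. The median log2 fold change was 0.02 for mitochondrial and 0.01 for peroxisomal members, and near 0 for all genes tested. Leaving out 1 library at a time, the mitochondrial median ran from -0.018 to 0.106 and the peroxisomal median from -0.039 to 0.15, both highest without HFD replicate 2. The libraries of MCD and HFD did not overlap for 0 members on the higher side and 1 on the lower side, against 2.49% and 1.83% of all genes. Intervals still allow moderate differences: that of Bdh1 ran from -0.05 to 0.35, that of Vnn1 from -0.32 to 0.69 and that of Ehhadh from -0.20 to 0.40. Without HFD replicate 2, the difference of Vnn1 was 0.49 with adjusted p = 0.0767, against 0.18 with it, and that of Bdh1 0.25 with adjusted p = 0.0693, against 0.15 with it. Acadm stood at 0.27 with adjusted p = 0.0541 without it, against 0.15 with it. Without that library Acot2 was called higher on MCD than on HFD, at 1.19 with adjusted p = 0.0183, against 0.47 with adjusted p = 0.565 with it. Abcd3 was then called lower, at -0.39 with adjusted p = 0.0437, against -0.35 with adjusted p = 0.118 with it.

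**Figure D5:**
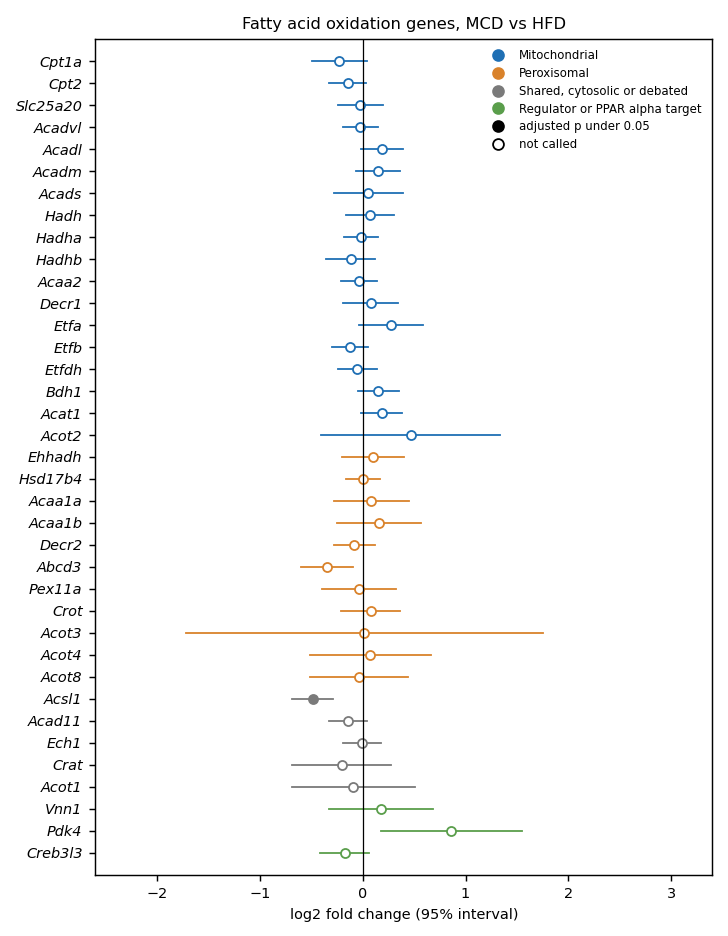
Log2 fold changes with 95% intervals of the 37 tested members on MCD against HFD, coloured by role, with a filled point for adjusted p under 0.05. Only Acsl1 is filled, at -0.49, and the widest interval is that of Acot3, from -1.72 to 1.75.

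Counted by overlap, all libraries of MCD lay above all of BD for 11 members and below for 2, against 9.32% and 6.07% of all genes tested. All libraries of HFD lay above all of BD for 12 members and below for 0, against 3.49% and 3.56% of all genes tested. On HFD 5 of the 12 did not pass the test: Acadl, Acat1, Hsd17b4, Ech1 and Acad11, with log2 fold changes from 0.19 to 0.28.

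Beyond the 39 genes, further genes of mitochondrial oxidation and of peroxisomes were called in both directions. The mitochondrial list also holds genes of amino acid breakdown, so it does not cover fatty acid oxidation alone. Among all genes tested, 12.8% were called higher and 8.64% lower on MCD against BD, and 3.65% and 3.27% on HFD against BD. Of 25 other mitochondrial oxidation and ketone body genes, 6 were higher and 6 lower on MCD against BD, with a median log2 fold change of -0.04, and 2 were higher and 4 lower on HFD, with a median of -0.06. Ivd, the isovaleryl-CoA dehydrogenase gene of leucine breakdown, averaged 126.8 ± 10.7 CPM in MCD livers, 136 ± 8.45 in HFD livers and 227 ± 12.6 in BD livers, with log2 fold changes of -0.84 ± 0.08 and -0.74 ± 0.08 (adjusted p = 2.61e-06 and 1.22e-05) for MCD and HFD against BD. Acadsb, a dehydrogenase of isoleucine breakdown, averaged 120.5 ± 10.6 CPM in MCD livers, 151 ± 32.9 in HFD livers and 215 ± 23.6 in BD livers, with a log2 fold change of -0.83 ± 0.13 on MCD against BD (adjusted p = 0.000179). Bdh2, a cytosolic dehydrogenase gene, averaged 11.3 ± 3.49 CPM in MCD livers, 7.91 ± 1.64 in HFD livers and 20.9 ± 2.17 in BD livers, with -1.38 ± 0.18 on HFD against BD (adjusted p = 7.96e-05). Oxct1, which starts the use of ketone bodies and is very low in hepatocytes, averaged 8.14 ± 1.15 CPM in MCD livers, 4.05 ± 1.08 in HFD livers and 4.51 ± 1.29 in BD livers. It was the 1 gene of the list that differed between MCD and HFD, by 1.02 ± 0.22 (adjusted p = 0.0181).

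Of 31 other peroxisomal genes, 2 were higher and 5 lower on MCD against BD, and 5 were higher and 3 lower on HFD. These are 6.45% and 16.1% on MCD, against 12.8% and 8.64% of all genes tested. On HFD they are 16.1% and 9.68%, against 3.65% and 3.27%. Eci2, an enoyl-CoA isomerase gene, averaged 184 ± 15.7 CPM in MCD livers, 187 ± 18.5 in HFD livers and 136 ± 17.1 in BD livers, with 0.46 ± 0.10 on HFD against BD (adjusted p = 0.00845). Hacl1, of the alpha-oxidation of branched chains, fell on MCD by 1.06 on the log2 scale, at 279 ± 69.6 CPM in MCD livers, 357 ± 65.2 in HFD livers and 581 ± 84.2 in BD livers (adjusted p = 0.000232 on MCD). Cat, the catalase gene, averaged 3654 ± 138 CPM in MCD livers, 3959.9 ± 204 in HFD livers and 4793 ± 281 in BD livers, with -0.39 ± 0.08 on MCD against BD (adjusted p = 0.0016). Pecr, an enoyl-CoA reductase gene, stood at -0.47 ± 0.10 on HFD against BD (adjusted p = 0.00809). Of 10 acyl-CoA synthetase and uptake genes, 1 was lower on MCD, and 1 was higher and 1 lower on HFD against BD. The share lower on MCD, 10%, was near that of all genes tested. Slc27a5, the bile acid and fatty acid ligase gene, averaged 865 ± 111 CPM in MCD livers, 977 ± 32.5 in HFD livers and 1242 ± 71.5 in BD livers (adjusted p = 0.000477 and 0.0247 for MCD and HFD against BD), and Slc27a2 was higher on HFD by 0.50 ± 0.12 (adjusted p = 0.0159).

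All called genes of a list of other PPAR alpha targets were higher on the high-fat diets than on BD. Of 21 tested, 10 were higher and 0 lower on MCD against BD, with a median of 0.56, and 9 were higher and 0 lower on HFD, with a median of 0.74. The higher ones are 47.6% on MCD and 42.9% on HFD, against 12.8% and 3.65% of all genes tested. This list, too, was chosen with earlier results of these data known. At an unadjusted p under 0.05 edgeR also gave 0 lower in both pairs, as did DESeq2 and limma-voom at an adjusted p. Plin2, which coats lipid droplets, averaged 833 ± 81.6 CPM in MCD livers, 927 ± 107 in HFD livers and 457 ± 64.5 in BD livers, with log2 fold changes of 0.87 ± 0.11 and 1.02 ± 0.11 on MCD and HFD against BD (adjusted p = 4.72e-05 and 1.16e-05). Fabp2, a fatty acid binding protein gene, averaged 142 ± 48.9 CPM in MCD livers, 114 ± 29.6 in HFD livers and 44.3 ± 7.71 in BD livers, with 1.67 ± 0.22 on MCD against BD (adjusted p = 9.8e-05). Gpd2, of the glycerol phosphate shuttle, averaged 66.5 ± 9.72 CPM in MCD livers, 106 ± 18.7 in HFD livers and 45.1 ± 7.77 in BD livers, and was lower on MCD than on HFD, at -0.67 ± 0.14 on the log2 scale (adjusted p = 0.0157). Among 16 regulators, 2 were higher and 1 lower on each high-fat diet against BD. These are 12.5% and 6.25%, near the 12.8% and 8.64% of all genes tested on MCD. On HFD the shares of all genes tested were 3.65% and 3.27%. Ppara itself averaged 441 ± 86.4 CPM in MCD livers, 558 ± 43.002 in HFD livers and 287 ± 50.9 in BD livers, with 0.62 ± 0.14 on MCD (adjusted p = 0.00347) and 0.96 ± 0.14 on HFD (adjusted p = 0.000242) against BD. Ppard, a related receptor, averaged 7.29 ± 2.95 CPM in MCD livers, 8.14 ± 2.11 in HFD livers and 27.1 ± 10.6 in BD livers, with -1.87 ± 0.29 and -1.72 ± 0.30 on MCD and HFD against BD (adjusted p = 0.000323 and 0.00182). The other regulator that was higher was Nr1d1, named after its values were seen, which is also a clock gene, at 1.43 on MCD and 1.36 on HFD. Prkaa2, a subunit gene of the energy sensor AMPK, was lower on MCD than on HFD, at -0.35 ± 0.09 on the log2 scale (adjusted p = 0.045).

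Clock genes and markers of several other cell types moved with diet as well. For scale, 12.8% of all genes tested were called higher and 8.64% lower on MCD against BD, and 3.65% and 3.27% on HFD against BD. Of 19 circadian clock genes, 9 were higher and 6 lower on MCD against BD, and 10 were higher and 4 lower on HFD against BD. Between MCD and HFD edgeR called 0, with 2 lower at an unadjusted p under 0.05, DESeq2 called 1 lower and limma-voom 0. Nr1d2 averaged 95.8 ± 11.98 CPM in MCD livers, 83.8 ± 12.8 in HFD livers and 33.7 ± 5.30 in BD livers, and Cry1 8.68 ± 1.84 CPM in MCD livers, 8.77 ± 2.18 in HFD livers and 26.6 ± 3.97 in BD livers. Several oxidation genes are known to cycle over the day in mouse liver, and the part of clock time in the results was not tested. Macrophage markers summed to 586 to 737 CPM in MCD livers, 404 to 599 in HFD livers and 258 to 462 in BD livers, and 10 of 10 were higher on MCD and 4 of 10 on HFD against BD. Stellate cell markers summed to 324 to 664 CPM in MCD livers, 196 to 325 in HFD livers and 161 to 194 in BD livers, and 7 of 8 tested were higher on MCD; on HFD edgeR called 0 of 8, with 4 higher at an unadjusted p under 0.05, DESeq2 called 1 and limma-voom 0. Adipocyte markers summed to 79.5 to 173 CPM in MCD livers, 34.9 to 206.6 in HFD livers and 20.1 to 42.5 in BD livers, with Lep at 0 in all. Plin1 was also at 0 in MCD and BD livers, Retn in HFD livers and Adipoq in BD livers. Of 4 adipocyte markers tested, 2 were higher on MCD against BD. On HFD against BD edgeR called 0 of 4, with 3 higher at an unadjusted p under 0.05, and DESeq2 called 2 of the list and limma-voom 0. Cholangiocyte markers summed to 79.02 to 256 CPM in MCD livers, 59.2 to 193 in HFD livers and 56.6 to 96.5 in BD livers, and of 4 tested 1 was higher and 1 lower on MCD, and 0 higher and 1 lower on HFD against BD. Hepatocyte markers summed to 111071 to 152953 CPM in MCD livers, 106912 to 130119.5 in HFD livers and 122453 to 140591 in BD livers, and of 8 tested 2 were lower on MCD and 1 on HFD. Of 6 endothelial markers 2 were higher on MCD and 0 on HFD against BD. The 1 tested lymphocyte marker and the 1 tested erythroid marker were called by edgeR in neither pair, while DESeq2 called 1 lymphocyte marker higher on MCD. The part of these cells in the results was not tested, and in a piece of whole liver fewer cells of a type and less RNA per cell cannot be told apart.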

How the data were processed

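The members and gene lists were chosen with earlier results of these data known. The authors deposited 1 table of whole-number read counts per gene symbol for each of the 15 libraries; per the labels' protocols, polyA RNA was made into stranded libraries. The submitters' processing notes name TopHat2 (2.0.13), HTSeq, Trimmomatic and DESeq2 with the build GRCm38/mm10. Which annotation, strand and mode settings were used for counting is not given in the sources used, so genes that overlap an antisense or near-identical gene are uncertain.

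Rows that name no gene entered neither library sizes nor tests: reads outside any gene were 12.7% to 17.0% and ambiguous reads 0.567% to 0.841% of uniquely placed reads, and non-unique alignments numbered 1.15 to 2.80 per gene count. Groups followed the diet labels. The fit used edgeR 4.0.16 (R 4.3.3) with TMM factors, kept 12193 genes by filterByExpr (diet as group, minimum count of 10, minimum total of 15), and was 1 robust quasi-likelihood fit over 15 libraries with a two-sided F test for each pair of diets, called at a Benjamini-Hochberg adjusted p under 0.05. The common biological coefficient of variation was 0.176. CPM are counts scaled by library total and TMM factor; the SE of a log2 fold change is its size over the root of F, and intervals are 95%. The fit was tested on simulated counts. Depth sets the precision: 3 counts are 0.130 to 0.810 CPM.

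Every library value is given for the called members and for Ehhadh, Acaa1b, Acot1, Acot3, Pdk4 and Creb3l3; of each other list the 2 genes with the smallest p in a comparison could be named. Of the listed genes 3 were found by an older symbol (Ciart, Adgre1, Pex11g). Gene models for exon length, and for the share of 50-base words that occur in other genes, came from GENCODE vM21, and promoters from RefSeq (GRCm38.p6). Alternatives were DESeq2 1.42.0, limma-voom (limma 3.58.1), RLE factors, no scaling factors, no filter, no robust estimation, only the 2 diets compared, a covariate for non-unique alignments, and leaving out libraries.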

Additional observations from a re-analysis of the deposited data

Results flagged for a closer look

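A library was flagged where its gap to the nearest other library of its diet, divided by the range of the 5, exceeded Dixon's critical value; chance flags about 1 in 20 groups, and 15 of 117 groups of 5 were flagged. In HFD replicate 2, 8 members stood above the other 4 HFD libraries: Cpt1a at 855 CPM against 739.8 to 764, Acadm at 499 against 344 to 372, Bdh1 at 470.1 against 336 to 370.3, Acot2 at 12.9 against 2.32 to 4.47, Pex11a at 85.6 against 46.9 to 57.2, Acot3 at 42.9 against 0.917 to 9.84, Vnn1 at 256 against 107 to 130.3, and Aqp7 at 0.755 against 0 to 0.135. In BD replicate 4, 3 members stood below the other BD libraries: Cpt1a at 296 CPM against 385 to 416, Decr2 at 153 against 194 to 211, and Acad11 at 417 against 493 to 509. Etfa reached 243 CPM in BD replicate 5, against 172 to 183 in the other BD libraries. On MCD, Acadm reached 486 CPM in replicate 4 against 406 to 426, Acot8 reached 14.7 in replicate 3 against 9.24 to 10.1, and Acot1 stood at 5.48 in replicate 5, against 12.9 to 14.6 in the other MCD libraries.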

How the results depend on the processing

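No call turned its direction under the 24 alternatives, while values that missed the test could change sign, such as Acads on MCD against BD, at -0.24 to 0.20. Calls that held under all of them were 8 of 15 on MCD against BD (Acadl, Acat1, Bdh1, Cpt1a, Decr1, Decr2, Hadha and Vnn1), 6 of 8 on HFD against BD (Bdh1, Cpt1a, Decr2, Hadha, Pex11a and Vnn1) and 0 of 1 on MCD against HFD. With a covariate for non-unique alignments, 8 members were called higher on MCD against BD in place of 13, with 1 peroxisomal member in place of 2. On HFD against BD 11 members were then called higher in place of 8. On MCD against HFD 0 were called lower in place of 1, and the peroxisomal median was -0.20 in place of 0.01. The cause of these shifts was not tested. Without scaling factors the median of all genes moved by 0.142 on MCD against BD, by 0.065 on HFD against BD and by 0.076 on MCD against HFD, all on the log2 scale. On MCD against BD 0 members were then called lower in place of 2 and 4 peroxisomal members higher, and the mitochondrial and peroxisomal medians were 0.45 and 0.35 in place of 0.31 and 0.21. Peroxisomal members called higher on MCD against BD numbered 4 with DESeq2 and 5 with only the 2 diets in the fit. Without both HFD replicate 2 and MCD replicate 3, on MCD against HFD 1 member was called higher in place of 0, a mitochondrial one, and the peroxisomal median was 0.14. Leaving out 1 library at a time, mitochondrial members called higher on HFD against BD numbered 3 to 5, with 3 without HFD replicate 4, and peroxisomal members called higher on MCD against BD 2 to 4. Likewise, on MCD against HFD, 0 to 1 members were called higher, 0 to 1 of them mitochondrial, 0 to 2 were called lower, and the peroxisomal median was -0.039 to 0.15, with the high ends without HFD replicate 2 and 0 lower without HFD replicate 4. No paired analysis was possible because the labels give no replicate numbers that diets share; the numbers used follow the order of deposit. Depth limits Acot1, Acot2, Acot3, Acot8, Cpt1b and Aqp7 most.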

Other observations

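Within MCD, replicates did not rank alike over the members. Replicate 1 was the highest MCD library for 12 of the 37 tested members, or 32.4%, against 14.4% of all genes tested, and replicate 5 was the lowest for 17, or 45.9%, against 23.2%. Ehhadh ran from 354 CPM in replicate 5 to 726 in replicate 1, and Acaa1b from 708 to 1283 in those libraries. Cpt1a ran the other way, with 833 CPM in replicate 5 and 570.3 in replicate 1. Within BD, replicate 5 was the lowest library for 19 of 37 members, or 51.4%, against 25.1% of all genes tested, and replicate 3 the highest for 16, or 43.2%, against 15.7%. These members were named after their values were seen.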
